A study of Mus musculus with 12 samples.

Results

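Granins and the enzymes that cut prohormones were measured in the hypothalamus of obese mice given DMSO, celastrol or withaferin A. The set was fixed by gene name and lists 10 genes: the granins Vgf, Chga, Chgb, Scg2 and Scg3, the enzymes Pcsk1, Pcsk2 and Cpe, and the enzyme partners Scg5 and Pcsk1n. On the array 9 of the 10 had a probe set carrying that symbol alone, out of 19938 genes with such a probe set, and each of the 9 had 1 such probe set. Pcsk2 had none in the probe table and was not analysed here. The 9 genes were above the limit for dim genes and were all among the 14953 genes tested.

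Each of the 12 arrays held RNA of one hypothalamus sample of a C57BL/6J male aged 23 weeks. All the mice, controls included, had eaten a diet with 45% fat for 20 weeks, starting at 3 weeks of age, and all had first been given DMSO by intraperitoneal injection for 4 days. In the next 4 days the DMSO group went on with the vehicle, the celastrol group received 100 µg/kg a day and the withaferin A group 2 mg/kg a day. Each group had 4 biological replicates, and no lean or pair-fed group is analysed here. Values are the log2 signal after RMA, a method that removes background, brings the arrays to one distribution and joins the probes of a probe set. A difference of 1 on this scale is a doubling, and the number of arrays limits the precision. Because probes differ in brightness, levels were compared between groups for a gene and never between genes.

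Neuropeptides are made as large precursors that are packed into dense core vesicles and cut there at pairs of basic residues. The convertases encoded by Pcsk1 and Pcsk2 make the cuts, and carboxypeptidase E, encoded by Cpe, trims the exposed basic residues. Granins are acidic proteins that help these vesicles form and are themselves cut into peptides. In the hypothalamus this machinery turns proopiomelanocortin into melanocortins, and loss of Pcsk1 or Cpe function causes obesity in people or mice, whereas mice without Vgf are lean.

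Transcription of several of these genes is known to respond to cyclic AMP through an 8-base element, TGACGTCA, the cAMP response element. The RefSeq promoter table (GRCm38.p6) had an entry for 8 of the 10 genes, with Vgf and Cpe not among them. In the 250 bases before the start, searched on both strands, 3 of the 8 held the full element, namely Chgb, Scg2 and Pcsk1, against 1.55% of 32851 promoters of the same length. The 30-base stretches around it are shown because the promoters of these 3 genes carry the same 8 letters at a like distance from the start, with the element in capitals.
Chgb, chr2:132781559-132781588, plus strand: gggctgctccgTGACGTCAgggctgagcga
Scg2, chr1:79440076-79440105, minus strand: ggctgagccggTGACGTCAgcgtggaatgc
Pcsk1, chr13:75089768-75089797, plus strand: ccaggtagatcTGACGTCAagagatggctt
The element began 72 bases before the start in Chgb, 68 in Scg2 and 78 in Pcsk1. It was searched because it is known for genes of this set. The promoters compared were not matched for C and G content, so the shares here and below are a description.

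The first 5 letters, TGACG, which also lie inside the full element, were present in 7 of the 8 promoters, Pcsk1n being the exception, against 17.8% of all promoters. Of the 8, 4 held this shorter form alone, beginning 44 bases before the start in Chga, 30 in Scg3, 34 in Pcsk2 (on the opposite strand) and 175, well apart from the others, in Scg5. The granins Chga and Scg3 are shown as examples, the 5 letters in capitals. Only exact matches of the full element were counted, so near matches, as in these 2 genes, are listed under the shorter form.
Chga, chr12:102554885-102554914, plus strand: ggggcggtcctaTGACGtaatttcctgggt
Scg3, chr9:75684069-75684098, minus strand: gcgctgggtcgcTGACGccatcctcacgcc
A motif of STAT factors, TTCNNNGAA, was present in Scg2 and Scg5, against 7.02% of all promoters. These are matches of letters, and binding was not measured.

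The whole 250 bases before the start are given for Chgb and Scg2, the granin genes whose withaferin A arrays did not overlap the DMSO arrays, with the full element in capitals.
Chgb, chr2:132781392-132781641, plus strand: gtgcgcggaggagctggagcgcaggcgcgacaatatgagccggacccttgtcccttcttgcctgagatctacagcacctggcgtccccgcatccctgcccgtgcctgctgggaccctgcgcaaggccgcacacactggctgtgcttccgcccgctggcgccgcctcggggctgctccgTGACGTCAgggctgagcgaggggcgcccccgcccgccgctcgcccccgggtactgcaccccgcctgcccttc
Scg2, chr1:79440027-79440276, minus strand: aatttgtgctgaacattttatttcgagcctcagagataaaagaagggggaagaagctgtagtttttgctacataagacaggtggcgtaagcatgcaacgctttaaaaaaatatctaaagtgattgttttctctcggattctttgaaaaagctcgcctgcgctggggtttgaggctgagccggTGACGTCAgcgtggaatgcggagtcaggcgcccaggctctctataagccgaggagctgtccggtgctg

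None of the 9 genes passed an adjusted p of 0.05 in limma's test in any of the 3 comparisons between groups. After celastrol the largest difference was that of Vgf, at −0.34, or 1.26-fold lower, and after withaferin A those of Scg3 and Chgb, at −0.22 each. Differences of the other genes from DMSO lay between −0.16 and 0.006 after celastrol and between −0.15 and −0.022 after withaferin A. The share of all tested genes past the threshold was 0.769% for celastrol versus DMSO, 0% for withaferin A versus DMSO and 0.0468% for withaferin A versus celastrol (0.00669% higher and 0.0401% lower with withaferin A). Without adjustment, limma gave p under 0.05 for 2 of the 9 with celastrol versus DMSO, beside 10.4% of all tested genes. Both were lower (6.25% of all genes) and 0 higher (4.19%). With withaferin A versus DMSO there were 3 of 9, beside 15.7% of all genes, with 3 lower (9.11%) and 0 higher (6.62%). With withaferin A versus celastrol there was 1 of 9, beside 16.1% of all genes, with 0 lower (7.46%) and 1 higher (8.67%).

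**Figure D1:**
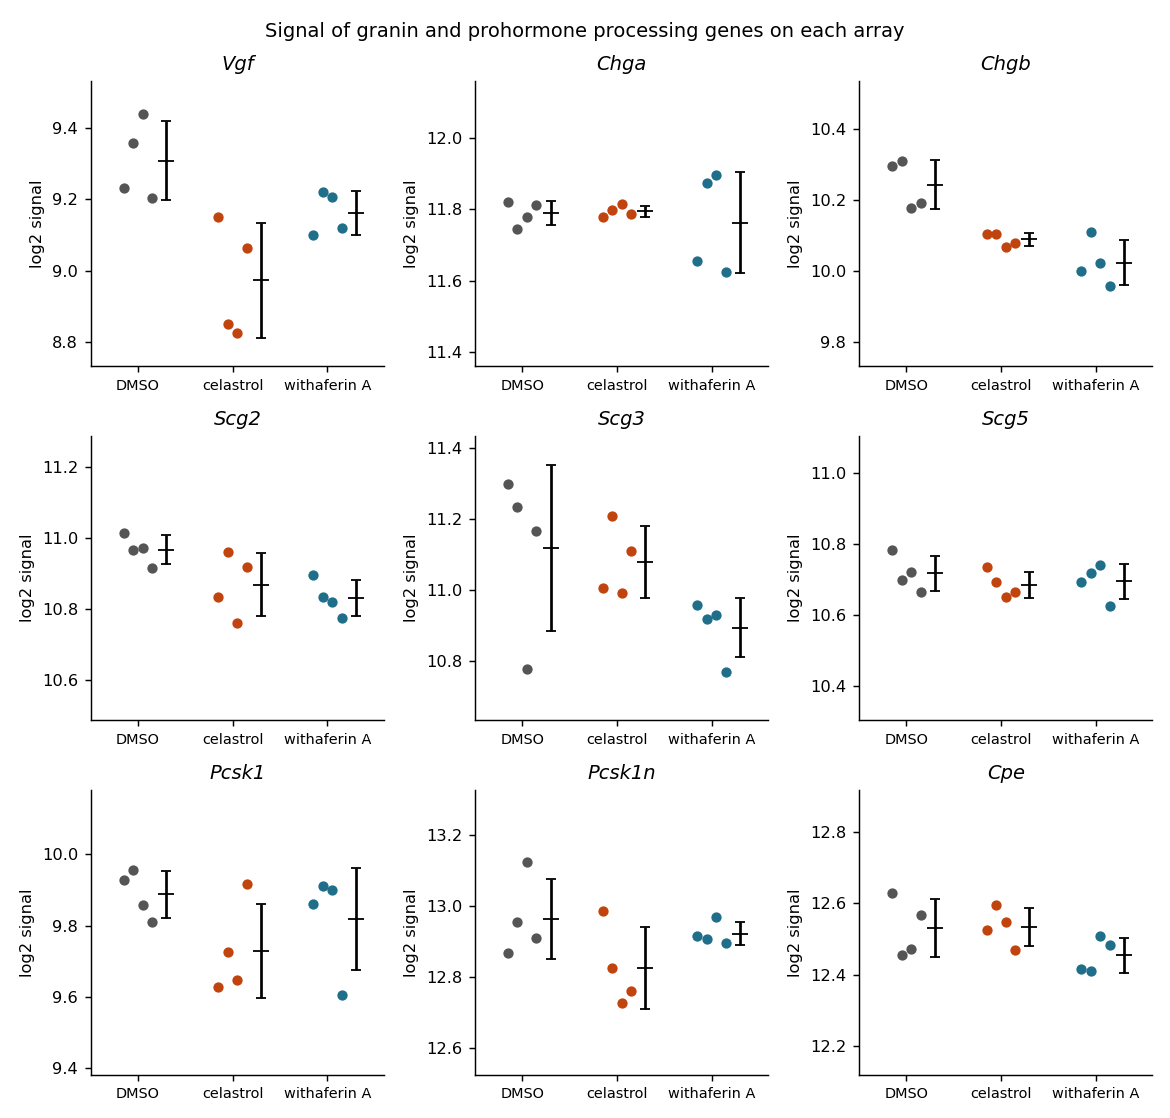
Log2 signal of the 9 genes on each of the 12 arrays (points), by treatment group (horizontal axis), with the mean and SD of the 4 arrays of a group beside them; every panel spans the same range of log2 signal. The celastrol arrays of Vgf and Chgb lie below all DMSO arrays, as do the withaferin A arrays of Chgb and Scg2, while one DMSO array of Scg3 lies far below the other 3.

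Vgf encodes a precursor whose peptides act on feeding and energy expenditure. Its signal on DMSO replicates 1 to 4 was 9.23, 9.36, 9.44 and 9.20. On the celastrol arrays it was 9.15, 8.85, 8.82 and 9.06. All 4 celastrol arrays lay below all 4 DMSO arrays, with replicate 1 the closest to the controls.

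The group means of Vgf were 9.31 ± 0.11 with DMSO (SD, n = 4) and 8.97 ± 0.16 with celastrol, a difference of −0.34 ± 0.08 (SE) with a 95% interval from −0.51 to −0.17. The adjusted p was 0.0789 in limma's test, and 1.14% of the tested genes had a smaller unadjusted p. In whole hypothalamus, fewer cells of a type and less RNA per cell cannot be told apart. The call depended on the settings: Vgf passed when genes below the median level were left out (adjusted p = 0.0432 in limma), with each array centred on its median (0.0484), with an intensity trend and robust prior (0.0271), with array weights (0.0379) or without celastrol replicate 1 (0.0492). In the remaining alternatives its adjusted p ran up to 0.767.

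The withaferin A arrays of Vgf read 9.10, 9.22, 9.21 and 9.12, with a mean of 9.16 ± 0.06 (SD, n = 4). They overlapped both other groups: 2 of them were above the lowest DMSO array and 2 below the highest celastrol array. The difference from DMSO was −0.15 ± 0.08 (SE), with an adjusted p of 0.385 in limma. In order of mean level the groups were thus DMSO, withaferin A and celastrol, and no pair of these groups was separated past the threshold in the main fit.

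Chgb encodes chromogranin B, a major granule protein. It read 10.30, 10.31, 10.18 and 10.19 with DMSO. With celastrol it read 10.10, 10.10, 10.07 and 10.08, and with withaferin A 10.001, 10.11, 10.02 and 9.96. Every treated array lay below every DMSO array, and the treated groups overlapped.

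Chgb means were 10.24 ± 0.07 (SD, n = 4), 10.09 ± 0.02 and 10.02 ± 0.06 in the same order. The difference from DMSO was −0.15 ± 0.05 (SE; adjusted p = 0.243 in limma) after celastrol and −0.22 ± 0.05 (adjusted p = 0.155) after withaferin A, or 1.16-fold. Of the tested genes 0.528% had a smaller unadjusted p in the latter comparison. Both comparisons use the same 4 controls, so they are not independent. Chgb stayed short of the threshold in every alternative fitted, with the lowest adjusted p in limma at 0.0524, for withaferin A without DMSO replicate 3.

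Scg2 encodes secretogranin II, the precursor of secretoneurin. Its DMSO arrays read 11.01, 10.97, 10.97 and 10.92, and its withaferin A arrays 10.90, 10.83, 10.82 and 10.78. These groups did not overlap, though DMSO replicate 4 and withaferin A replicate 1 were close. The celastrol arrays read 10.83, 10.96, 10.76 and 10.92 and spanned both. The differences from DMSO were −0.099 ± 0.055 (SE, n = 4 per group; adjusted p = 0.573 in limma) for celastrol and −0.14 ± 0.06 (adjusted p = 0.265) for withaferin A. With a further quantile normalization the latter was −0.069.

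Counted over the set, arrays did not overlap and were lower for 2 of 9 genes in each comparison with DMSO, Vgf and Chgb with celastrol and Chgb and Scg2 with withaferin A. Over all tested genes the shares were 4.5% and 4.69%. None of the 9 had all treated arrays above all DMSO arrays, against 2.71% and 2.91% of all genes.

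Scg3 encodes secretogranin III, which ties granins to the vesicle membrane. Its DMSO arrays read 11.30, 11.23, 10.78 and 11.17, so that replicate 3 lay far below the rest. The withaferin A arrays read 10.96, 10.92, 10.93 and 10.77. Without that replicate all of them are below all DMSO arrays, whereas with it 3 of the 4 lie above the lowest control.

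The Scg3 difference between withaferin A and DMSO was −0.22 ± 0.10 (SE, n = 4 per group; adjusted p = 0.293 in limma). Without DMSO replicate 3 it was −0.34 and passed (adjusted p = 0.0474), in a fit in which 172 genes passed. Celastrol arrays of Scg3 read 11.01, 11.21, 10.99 and 11.11, a difference of −0.04 ± 0.10 from DMSO (−0.15 without DMSO replicate 3). All withaferin A arrays lay below all celastrol arrays, the only one of the 9 genes without overlap in that comparison (all genes: 5.35% lower, 3.92% higher), with a difference of −0.18 ± 0.10 and an adjusted p of 0.372.

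Chga encodes chromogranin A, the founding granin. Its DMSO arrays ranged from 11.75 to 11.82 and its celastrol arrays from 11.78 to 11.82, a difference of 0.006 with a 95% interval from −0.13 to 0.14. The withaferin A arrays read 11.66, 11.87, 11.90 and 11.62, with an SD of 0.14 against 0.03 for DMSO and 0.015 for celastrol. Replicates 2 and 3 lay above and replicates 1 and 4 below every array of the other groups, and the mean differed from DMSO by −0.027 ± 0.064 (SE; adjusted p = 0.859 in limma).

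Pcsk1, the convertase that makes the first cuts in proopiomelanocortin and other precursors, read 9.93, 9.96, 9.86 and 9.81 with DMSO. With celastrol it read 9.63, 9.73, 9.65 and 9.92. Replicates 1 to 3 lay below all controls, and replicate 4 among them. The difference was −0.16 ± 0.08 (SE, n = 4 per group; adjusted p = 0.514 in limma), with a 95% interval from −0.33 to 0.013.

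On the withaferin A arrays Pcsk1 read 9.86, 9.91, 9.90 and 9.61. Replicate 4 stood alone at the low end and the other 3 lay within the DMSO range. The difference from DMSO was −0.069 ± 0.080 (SE; adjusted p = 0.701 in limma) and 0.002 without that replicate.

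Cpe, the carboxypeptidase that completes the processing, had means of 12.53 ± 0.08 with DMSO (SD, n = 4), 12.53 ± 0.05 with celastrol and 12.45 ± 0.05 with withaferin A. Its arrays overlapped in all 3 comparisons. The difference from DMSO was 0.003 (95% interval −0.12 to 0.12) for celastrol and −0.076 (−0.19 to 0.041) for withaferin A, with adjusted p of 0.992 and 0.512 in limma.

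The enzyme partners were Scg5, a chaperone that Pcsk2 needs to mature, and Pcsk1n, whose product proSAAS binds and inhibits the Pcsk1 enzyme. Scg5 lay between 10.63 and 10.78 on all 12 arrays. Its differences from DMSO were −0.032 (95% interval −0.14 to 0.073) with celastrol and −0.022 (−0.13 to 0.082) with withaferin A. Its arrays overlapped in every comparison.

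Pcsk1n read 12.87, 12.95, 13.12 and 12.91 with DMSO and 12.99, 12.83, 12.73 and 12.76 with celastrol. Celastrol replicates 2 to 4 lay below all controls, and replicate 1 above 3 of them. The difference was −0.14 ± 0.07 (SE, n = 4 per group; adjusted p = 0.511 in limma). The withaferin A arrays lay close together, between 12.90 and 12.97, with a difference of −0.042 ± 0.068 (adjusted p = 0.793).

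**Figure D2:**
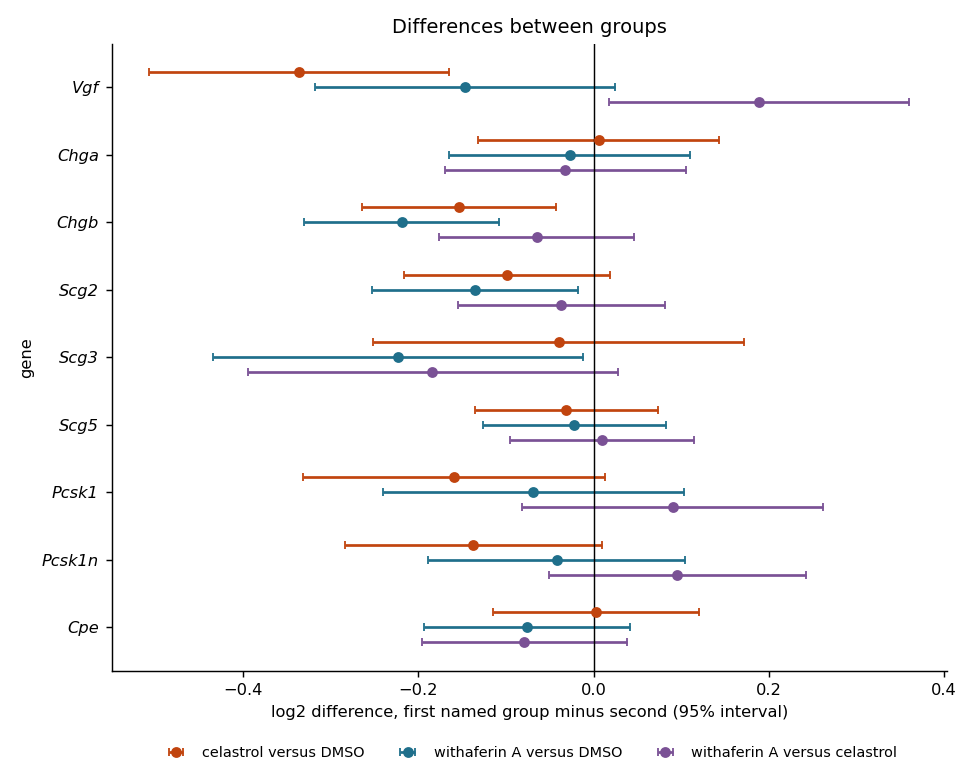
Log2 difference (horizontal axis) of each gene (vertical axis) between the groups named in the legend, as points with 95% intervals from limma's fit to 12 arrays. Intervals below 0 are those of Vgf and Chgb for celastrol versus DMSO and of Chgb, Scg2 and Scg3 for withaferin A versus DMSO; the interval of Vgf for withaferin A versus celastrol lies above 0, and these intervals are not adjusted for the number of genes.

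Over the 9 genes the median difference was −0.099 for celastrol versus DMSO and −0.076 for withaferin A versus DMSO, beside −0.017 and −0.004 over all tested genes. With the deposited values 7 of 9 differences were below 0 after celastrol (all genes: 57.4%), and 9 of 9 after each array was centred on its median. After withaferin A 9 of 9 were below 0 (all genes: 51.5%), but 5 of 9 after a further quantile normalization, where Chga, Scg5, Pcsk1n and Cpe turned positive and the median became −0.017.

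Set directly against each other, at doses that differ, withaferin A and celastrol gave a median difference of −0.033 over the 9 genes. Vgf was higher with withaferin A by 0.19 ± 0.08 (SE, n = 4 per group; 95% interval 0.018 to 0.36; adjusted p = 0.269 in limma). The intervals of the other 8 genes included 0, and the widest, that of Scg3, ran from −0.39 to 0.028. No gene of the set was therefore shown to differ between the compounds, and intervals of this width leave room for differences of the size seen against DMSO.

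Across the 12 arrays the 9 genes did not move as one. Of their 36 pairs 30 had a Pearson r above 0, with a median of 0.34 and a range from −0.40 to 0.81, given as a description because all pairs share the arrays and groups. The highest was that of Vgf with Pcsk1n (0.81), followed by Chgb with Scg2 (0.74) and Chgb with Scg3 (0.67). Chgb, Scg2 and Pcsk1, in which the full cAMP element was found, had r between 0.51 and 0.74 among themselves. Pairs with other genes lay in the same range, such as Scg2 with Scg3 (0.61) and Vgf with Pcsk1 (0.55). A role of the element was not tested. The lowest was that of Scg3 with Pcsk1n.

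The arrays were compared with one another by 12 hypothalamic transcription factors, among them Nkx2-1, Sim1 and Otp, of which 12 had a probe set above the dim limit. A marker score is the mean over a list of the log2 signal minus the gene's own mean over the 12 arrays. It ranks these arrays and does not test the tissue label. The hypothalamic score ran from 0.015 to 0.17 on DMSO arrays, from −0.16 to 0.058 on celastrol arrays and from −0.046 to 0.048 on withaferin A arrays. With celastrol 11 of the 12 factors were below DMSO in the mean and 0 passed the threshold.

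Vgf and Pcsk1n followed this score array by array. For Vgf Pearson's r was 0.90 (permutation p = 6e-05, adjusted 0.00324) and Spearman's rho 0.88 (permutation p = 0.00034, adjusted 0.0241) over 12 arrays, in two-sided tests with 100000 permutations adjusted over 72 relations of 9 genes with 8 scores, those of pituitary, neuron, thalamus, hypothalamus, astrocyte, oligodendrocyte, microglia and adrenal chromaffin cell. Without DMSO replicate 3 and celastrol replicate 3, the arrays with the most extreme scores, r was 0.77, and for deviations from the group means it was 0.80. For Pcsk1n r was 0.90 (permutation p = 9e-05, adjusted 0.00324) and rho 0.78 (permutation p = 0.00435, adjusted 0.104). Here r was 0.74 without those arrays and 0.90 for deviations from the group means. Arrays were shuffled across the 3 groups, so these p-values also reflect differences between groups. The r for deviations from the group means was not tested.

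With the hypothalamic score as a covariate, a fit chosen after seeing the data, the celastrol difference of Vgf was −0.14 ± 0.08 (SE; adjusted p = 0.767 in limma) in place of −0.34, and that of Pcsk1n 0.044 in place of −0.14. For Chgb it was −0.15, as without the covariate, and for Scg3 −0.20 ± 0.13 (adjusted p = 0.78) in place of −0.04. The withaferin A difference was −0.029 for Vgf in place of −0.15, −0.32 for Scg3 in place of −0.22 and −0.22 for Chgb, as without the covariate. In that fit 0 of all genes passed for celastrol versus DMSO, as in the fit with the pituitary score as covariate. Without DMSO replicate 2 and with no covariate 6 passed. Because 11 of the 12 factors were themselves below DMSO with celastrol, the covariate also takes out any treatment effect shared with the score. Tissue composition and treatment cannot be told apart in this fit.

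Cpe followed the score of 12 pan-neuronal markers instead, with r = 0.83 (permutation p = 0.00096, adjusted 0.023) and rho = 0.86 (permutation p = 0.00067, adjusted 0.0241), r = 0.74 without DMSO replicates 1 and 4, and r = 0.81 for deviations from the group means. The neuronal score lay between −0.060 and 0.070 on all arrays. The other 69 relations had adjusted p of 0.111 or more for r.

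**Figure D3:**
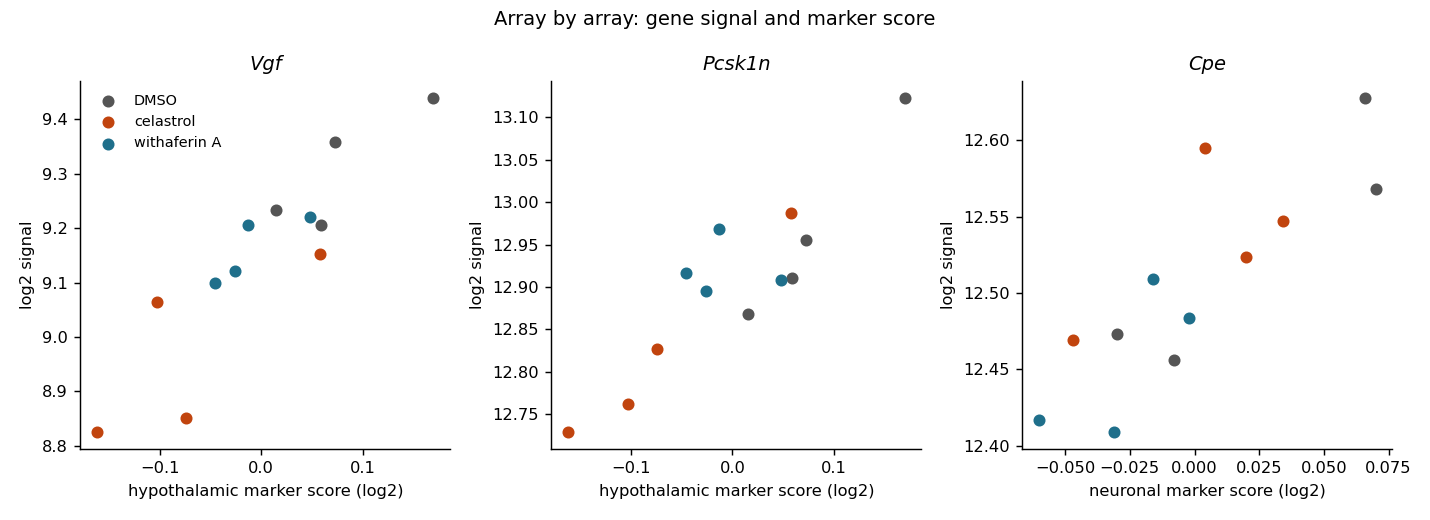
Log2 signal of Vgf and Pcsk1n against the hypothalamic marker score, and of Cpe against the neuronal marker score (horizontal axes, log2), 1 point per array coloured by group. Signal and score go together over the 12 arrays, with r of 0.90, 0.90 and 0.83, and celastrol replicate 3 is the lowest point for Vgf and Pcsk1n.

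Granins and convertases are also abundant in the pituitary, which adjoins the hypothalamus. Of 10 pituitary markers 8 had a probe set, and Tshb and Fshb were below the dim limit. The pituitary score ran from −0.45 to −0.19 on DMSO arrays and from −0.27 to 0.059 on withaferin A arrays. On celastrol arrays it was 1.52 on replicate 2, where Gh read 10.96, and 0 to 0.052 on the rest, so that celastrol and DMSO did not overlap. With single arrays left out the celastrol difference of Vgf lay between −0.40 and −0.29. Its adjusted p was 0.208 in limma without celastrol replicate 2. With the pituitary score as covariate the difference was −0.29 (adjusted p = 0.37 in limma). As the score separates these groups, its share and that of the treatment cannot be told apart.

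The genes around this machinery were examined in 7 lists. The other proprotein convertases had 6 tested genes, of which 0 passed against DMSO with either compound. After celastrol their median was −0.025, and Pcsk4 had the smallest p, at −0.20 ± 0.09 (SE; adjusted p = 0.449 in limma). After withaferin A the median was 0.068, with 6 of 6 above 0 (all genes: 51.5% below 0) and Pcsk6 at 0.20 ± 0.07 (adjusted p = 0.235 in limma).

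In the list of peptide trimming and amidation 0 of 10 genes passed in either comparison. Cpm, a membrane carboxypeptidase, read higher on every celastrol array than on any DMSO array, with means of 8.06 and 7.47 and a difference of 0.59 ± 0.15 (SE; adjusted p = 0.111 in limma). Pam, which amidates the carboxyl end of peptides, had −0.12 ± 0.06 after withaferin A (adjusted p = 0.381). Among peptide degrading enzymes 0 of 9 passed, and the smallest p belonged to Anpep with celastrol (−0.30 ± 0.08; adjusted p = 0.13) and to Mme, or neprilysin, with withaferin A (−0.30 ± 0.09; adjusted p = 0.189).

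Dense core vesicle genes other than the granins had medians of −0.039 after celastrol and −0.017 after withaferin A, and 0 of 26 passed. Syt4, a synaptotagmin of these vesicles, had −0.13 ± 0.05 (SE) after celastrol with an adjusted p of 0.29 in limma. Rab3a, a GTPase of secretory vesicles, had −0.14 ± 0.06 after withaferin A (adjusted p = 0.256 in limma). Rph3al went the other way, with a mean of 7.51 with withaferin A and 7.28 with DMSO. After withaferin A 17 of the 26 differences were below 0 (all genes: 51.5%) and 9 above, between −0.25 and 0.235. After celastrol 19 were below 0 (all genes: 57.4%) and 7 above.

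The neuropeptide precursors, the substrates of the enzymes, had the lowest median among the 7 lists in both comparisons. It was −0.15 over 31 genes after celastrol and −0.14 after withaferin A. With celastrol 2 of 31 fell and 0 rose, next to 0.314% and 0.455% of all genes. They were Oxt, the oxytocin precursor, by 0.40 ± 0.07 (SE; adjusted p = 0.0179 in limma), and Pnoc, the precursor of nociceptin, by 0.38 ± 0.08 (adjusted p = 0.0431). Of the 31 differences 25 were below 0 (all genes: 57.4%) and 6 above. Pomc, which encodes proopiomelanocortin, was among the latter, at 0.63 ± 0.25 (adjusted p = 0.356). All its celastrol arrays lay above all DMSO arrays (2.71% of all genes), with an SD of 0.56 against 0.08 for DMSO. The pituitary score was also higher on every celastrol array than on any DMSO array (0 to 1.52 against −0.45 to −0.19). Pituitary tissue and treatment therefore cannot be told apart for Pomc, and no fit of Pomc with that score is reported here.

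Of 25 alternatives Oxt lost its call in 8 and Pnoc in 15. For Oxt the arrays whose omission ended it were DMSO replicates 1, 2 and 4 and celastrol replicates 2 and 3. For Pnoc they were any DMSO array, celastrol replicates 2, 3 and 4 and withaferin A replicates 2 and 3. With the hypothalamic score as covariate the values were −0.26 and −0.25 (adjusted p = 0.455 and 0.61 in limma). With withaferin A 0 of 31 passed. Trh, Sst and Tac1 had the smallest p, at −0.25, −0.20 and −0.32, with adjusted p of 0.155, 0.163 and 0.181 in limma. Their arrays lay below all DMSO arrays. This held for 7 of the 31 (all genes: 4.69%), and 1 of the 31 lay above all DMSO arrays (all genes: 2.91%).

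Receptors of the peptides cut from Vgf or Pcsk1n had 3 tested genes, and 0 passed. C3ar1, bound by a peptide of Vgf, had −0.12 ± 0.10 (SE) after celastrol and 0.14 ± 0.10 after withaferin A, with adjusted p of 0.731 and 0.505 in limma. Gpr83, a receptor of a proSAAS peptide, had 0.17 ± 0.07 (adjusted p = 0.374) and −0.024 ± 0.068 (adjusted p = 0.885), and C1qbp had −0.072 and −0.038. Gpr171 was below the dim limit.

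Among 13 transcription regulators of neuroendocrine genes 1 fell with celastrol (all genes: 0.314%) and 0 passed with withaferin A (all genes: 0%). This was Nkx2-2, a homeobox factor, by 0.32 ± 0.07 (SE; adjusted p = 0.0476 in limma), a call lost in 17 of 25 alternatives, among them the omission of any DMSO array, of celastrol replicates 2, 3 and 4 and of withaferin A replicates 2, 3 and 4. Foxo1 had 0.27 ± 0.06 (adjusted p = 0.066), and Rcor2, a corepressor that acts with Rest, had −0.17 ± 0.06 (adjusted p = 0.314).

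**Figure D4:**
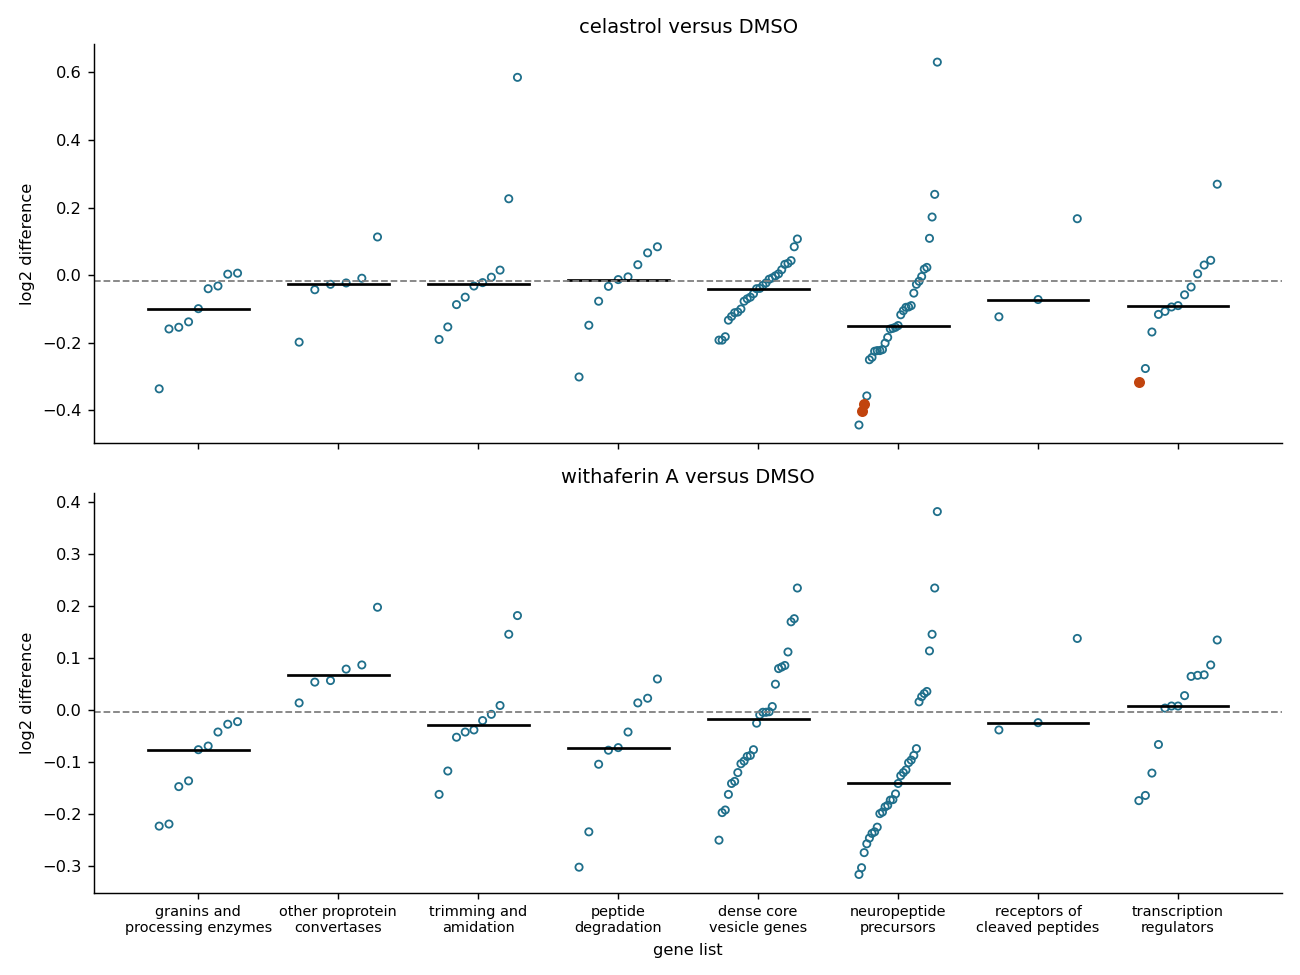
Log2 difference from DMSO (vertical axis) of each tested gene in the set and in 7 related lists (horizontal axis), for celastrol (top) and withaferin A (bottom). Filled points passed an adjusted p of 0.05, open points did not, short black lines are list medians and the dashed line is the median of all tested genes; the 3 filled points are Oxt, Pnoc and Nkx2-2.

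The genes outside the set whose signal was most like that of Vgf over the 12 arrays, among 14246 named genes, were Vwa5b1 (r = 0.96), Pnoc (0.94) and Ampd2 (0.93). Ampd2 codes for an AMP deaminase. Vwa5b1 had −0.22 ± 0.07 (SE) after celastrol and Ampd2 −0.23 ± 0.06, with adjusted p of 0.181 and 0.11 in limma. These r values are the highest of many and serve as a description.

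For the other members the most similar gene was Dpf3 for Chga (r = 0.85), Smim8 for Chgb (0.94), Gsta4 for Scg2 (0.92), Glcci1 for Scg3 (0.97), Epb41l1 for Scg5 (0.89), Mrpl15 for Pcsk1 (0.88), Spr for Pcsk1n (0.92) and Auh for Cpe (0.90). None of these 8 passed the threshold in any comparison. Their celastrol differences ran from −0.18 for Smim8 to −0.007 for Auh, and their withaferin A differences from −0.28 for Smim8 to −0.032 for Dpf3.

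Array medians lay between 6.89 and 6.98, correlations between arrays over all probe sets between 0.981 and 0.994, and 0 pairs of arrays were identical. Thalamus marker scores spread widely within each group, from −0.54 to 0.43 with DMSO. The oligodendrocyte score lay between 0.066 and 0.21 in the DMSO group and between −0.12 and −0.085 in the celastrol group, without overlap. In the withaferin A group it lay between −0.11 and 0.093. Of 5 oligodendrocyte markers 1 fell with celastrol (all genes: 0.314%), Opalin, a myelin gene, with a log2 difference of −1.003 ± 0.178 (SE; adjusted p = 0.0229 in limma). The other 4 had smaller differences and not all in one direction, with Mbp at −0.061, Mog at −0.20, Mag at −0.21 and Mobp at 0.31, the last with every celastrol array above every DMSO array (adjusted p = 0.127). The lower score of the celastrol group thus came mostly from Opalin. Over the 12 arrays the members' relations with the oligodendrocyte score had adjusted permutation p of 0.262 or more for r and 0.171 or more for rho. Vgf (r = 0.64, rho = 0.73) and Chgb (r = 0.66, rho = 0.65) had the highest. For deviations from the group means r was −0.18 for Vgf and 0.30 for Chgb. With the thalamus score the adjusted permutation p was 0.278 or more for r and 0.254 or more for rho, and Scg2 had r = −0.62.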

How the data were processed

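The deposited values are log2 signals, made by the authors with RMA per the submitters' processing notes, which give no version; labelling used Affymetrix whole-transcript kits, per the labels' protocols. Of 35556 probe sets, 21789 had 1 gene symbol, 1621 several and 12146 none; for each gene the single-symbol probe set with the highest mean was kept. Dim genes, with a mean signal under 5.81 (the 25th percentile over genes), were not tested. Group means were fitted to 12 arrays with limma 3.58.1 in R 4.3.3 (lmFit, eBayes; 9 residual and 4.44 prior degrees of freedom), two-sided, with Benjamini-Hochberg adjustment over 14953 genes. The 9 genes matched RefSeq by gene identifier, and promoter sequences are RefSeq's (GRCm38.p6). The genes named are all members, those of each list that passed or were among the 3 with the smallest p, and those most correlated with a member. Pomc was added as a substrate of the enzymes. Members, lists and markers were chosen with earlier results of these data known, so they are no independent evidence. Alternatives covered the dim filter, scaling, probe set choice, variance model, array weights, arrays fitted, a replicate block, marker covariates and single arrays left out. The test was checked on simulated data. The planted differences were larger than any of the members', so power at the members' sizes was not checked. Plots used matplotlib 3.10.9.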

Additional observations from a re-analysis of the deposited data

Results flagged for a closer look

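One value stood apart from its group by Dixon's test. The Pcsk1 signal on withaferin A replicate 4 was 9.61 (9.606), and the nearest array of that group read 9.86. Of the 27 groups of 4 arrays tested for the 9 genes, 1 was marked in this way, and chance marks about 1 in 20.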

How the results depend on the processing

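Each result was recomputed under 25 alternatives, of which the hypothalamic and thalamus scores as covariates were chosen after seeing the data. For celastrol versus DMSO, 1 member in place of 0 passed with the 50th percentile filter, array medians centred, an intensity trend with robust prior, or array weights, in each case Vgf. With single arrays left out the count ran from 0 to 1 for celastrol versus DMSO (1 without celastrol replicate 1) and from 0 to 1 for withaferin A versus DMSO (1, Scg3, without DMSO replicate 3). It was 0 in all 25 for withaferin A versus celastrol. The median over the 9 genes for withaferin A versus DMSO was −0.017 after a further quantile normalization and −0.16 with the neuronal score as covariate. For withaferin A versus celastrol it was 0.015 after the quantile normalization. The count of all genes passing ran from 0 to 219 (main 115), 0 to 172 (main 0) and 0 to 56 (main 7) in the 3 comparisons. The cause of these shifts was not tested.

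Of 675 refitted differences of single genes, 633 kept direction and call, 6 passed in addition and 36 changed sign, all of them values that did not pass. After a further quantile normalization, withaferin A versus DMSO gave 0.033 for Chga, 0.042 for Scg5, 0.035 for Pcsk1n and 0.022 for Cpe, and withaferin A versus celastrol 0.015 for Chga, 0.012 for Scg2 and 0.015 for Cpe. Centring gave −0.006 for Chga and −0.009 for Cpe (celastrol versus DMSO) and −0.025 for Scg5 (withaferin A versus celastrol). For celastrol versus DMSO the pituitary score gave −0.025 for Chga and −0.034 for Cpe, the thalamus score −0.003 and −0.022, and the hypothalamic score −0.046 for Cpe, 0.044 for Pcsk1n and 0.002 for Scg5. The hypothalamic score gave 0.065 for Pcsk1n in withaferin A versus DMSO and −0.004 for Scg5 in withaferin A versus celastrol, where the pituitary score gave 0.006 for Scg2. With single arrays left out, some ranges crossed 0. For celastrol versus DMSO they were −0.023 to 0.035 for Cpe (−0.018 without celastrol replicate 2, −0.017 without DMSO replicate 3, −0.002 without celastrol replicate 3), −0.009 to 0.016 for Chga (−0.001 without celastrol replicate 3) and −0.153 to 0.02 for Scg3. For withaferin A versus DMSO they were −0.072 to 0.019 for Chga (0.009 without withaferin A replicate 1), −0.039 to 0.001 for Scg5, −0.1 to 0.002 for Pcsk1 and −0.074 to 0.011 for Pcsk1n. For withaferin A versus celastrol they were −0.078 to 0.013 for Chga (0.003 without withaferin A replicate 1) and −0.006 to 0.032 for Scg5 (−0.002 without celastrol replicate 3). The median over the 9 genes ran from −0.129 to −0.063, −0.102 to −0.074 and −0.038 to 0.013 in the 3 comparisons.

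Replicate numbers are shared between groups, but deviations of arrays with the same number correlated from −0.28 to 0.12, with 2 of 12 pairs over 0.1. The main fit used no pairing, though such correlations cannot exclude shared handling of arrays with the same number. With the replicate number as a block, 0 members passed in all 3 comparisons (lowest adjusted p in limma 0.184, 0.234 and 0.371), and 54 of all genes passed for celastrol versus DMSO, Oxt, Pnoc and Nkx2-2 not among them.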
